A study of Mus musculus with 2 samples.

Results

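The genes described are the chemokines and chemokine receptors of the mouse array, taken as every gene probe whose name in the scanner files is a Ccl, Cxcl, Cx3cl1 or Xcl1 ligand or a Ccr, Cxcr, Cx3cr1 or Ccrl receptor. They came to 51 of the 27962 gene names and 68 of the 41174 gene probes. There were 35 ligands on 45 probes (20 CC, 13 CXC and 2 CX3C or XC ligands) and 16 receptors on 23 probes. Under current symbols Cxcl4 is Pf4, Cxcl7 is Ppbp, Ccrl1 is Ackr4 and Ccl27 is Ccl27a.

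The RNA came from 3T3-L1, an established mouse preadipocyte line that stores fat after hormonal induction, so that one cell line stood for the adipocyte. Both groups shared that line, growth in medium with 10% fetal calf serum and induction with insulin at 10 µg/ml, the glucocorticoid dexamethasone at 0.25 µM and the phosphodiesterase inhibitor 3-isobutyl-1-methylxanthine at 0.5 mM. Microvesicles shed by the adipocytes (ADMs) were spun out of the conditioned medium on day 11 of differentiation. Donor cells were harvested that day, and total RNA of each was prepared. Each of 2 biological replicates put both RNAs on the same 2-colour array, with the ADM RNA in Cy5 in replicate 1 and in Cy3 in replicate 2. "ADM RNA" and "cell RNA" stand throughout for the channels that the labels assign to them, and each direction rests on that assignment.

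Chemokines are small secreted proteins that guide migrating cells. They fall into families by the spacing of their first cysteines and act on G protein-coupled receptors, which are carried mostly by leukocytes. Adipocytes and their precursors secrete several of them, and Ccl2 in particular is known for drawing monocytes into fat tissue. Many inflammatory chemokine genes are switched on by the transcription factor NF-κB and, for Cxcl9 and Cxcl10, by interferon.

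The labelled cell type could be checked on part of its markers. Of 11 adipocyte markers, 8 were well above background (the scanner's flag for a spot clear of its background noise) in the ADM RNA on both arrays and 7 in the cell RNA. Adipoq, Cfd and Cidec are not among them because their spots carried outlier flags, and Adipoq and Cfd were bright in replicate 2. Of 6 preadipocyte and fibroblast markers, 6 were above background in the ADM RNA on both arrays and 5 in the cell RNA. In the limma test described below, 6 of their 11 tested probes were higher in the ADM RNA and 0 lower. Of the 10 tested adipocyte probes 3 were higher and 4 lower. Of all tested probes 5.52% were higher and 10.9% lower. The share of precursors in either RNA was not tested. Among leukocyte genes, 2 of 8 were above background in each RNA on both arrays, and the 4 probes of Ptprc, which defines leukocytes, were not. The summed net signal of the leukocyte list was 343 and 164 in the ADM RNA of replicates 1 and 2 and 131 and 169 in the cell RNA. Lyz1 and Lyz2 were the macrophage markers seen in both RNAs, while Adgre1, Csf1r, Itgam, Itgax and Aif1 were not above background on both arrays and Cd14 and Cd68 had no value in replicate 1. The macrophage list summed to 5057 and 2216 in the ADM RNA and 299 and 705 in the cell RNA, and any part of such cells in the chemokine values was not tested. In RNA of this kind, fewer cells or vesicles of a type and less RNA in each cannot be told apart.

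Ligands and receptors differed in whether they could be seen at all. A probe was counted as detected in an RNA where both arrays flagged it as well above background. In the ADM RNA 23 member probes of 18 genes were detected, beside 45.4% of all gene probes with values on both arrays, and all 23 were ligands. In the cell RNA 11 member probes of 10 genes were detected, beside 23.1% of all probes, again ligands in each case. Both RNAs showed 10 of these probes (9 genes), where the share of all probes was 20.9%. A further 6 probes were seen in the ADM RNA and on neither array in the cell RNA (13.1% of all probes), and Ccl21c alone was the reverse (1.78% of all probes). The remaining 7 detected probes were above background in the ADM RNA on both arrays and in the cell RNA on 1. At 37 of the 68 probes neither RNA was above background on either array. On single arrays 25 and 24 member probes were above background in the ADM RNA of replicates 1 and 2, and 12 and 22 in the cell RNA, so that replicate 1 limits the count for the cell RNA.

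**Figure D1:**
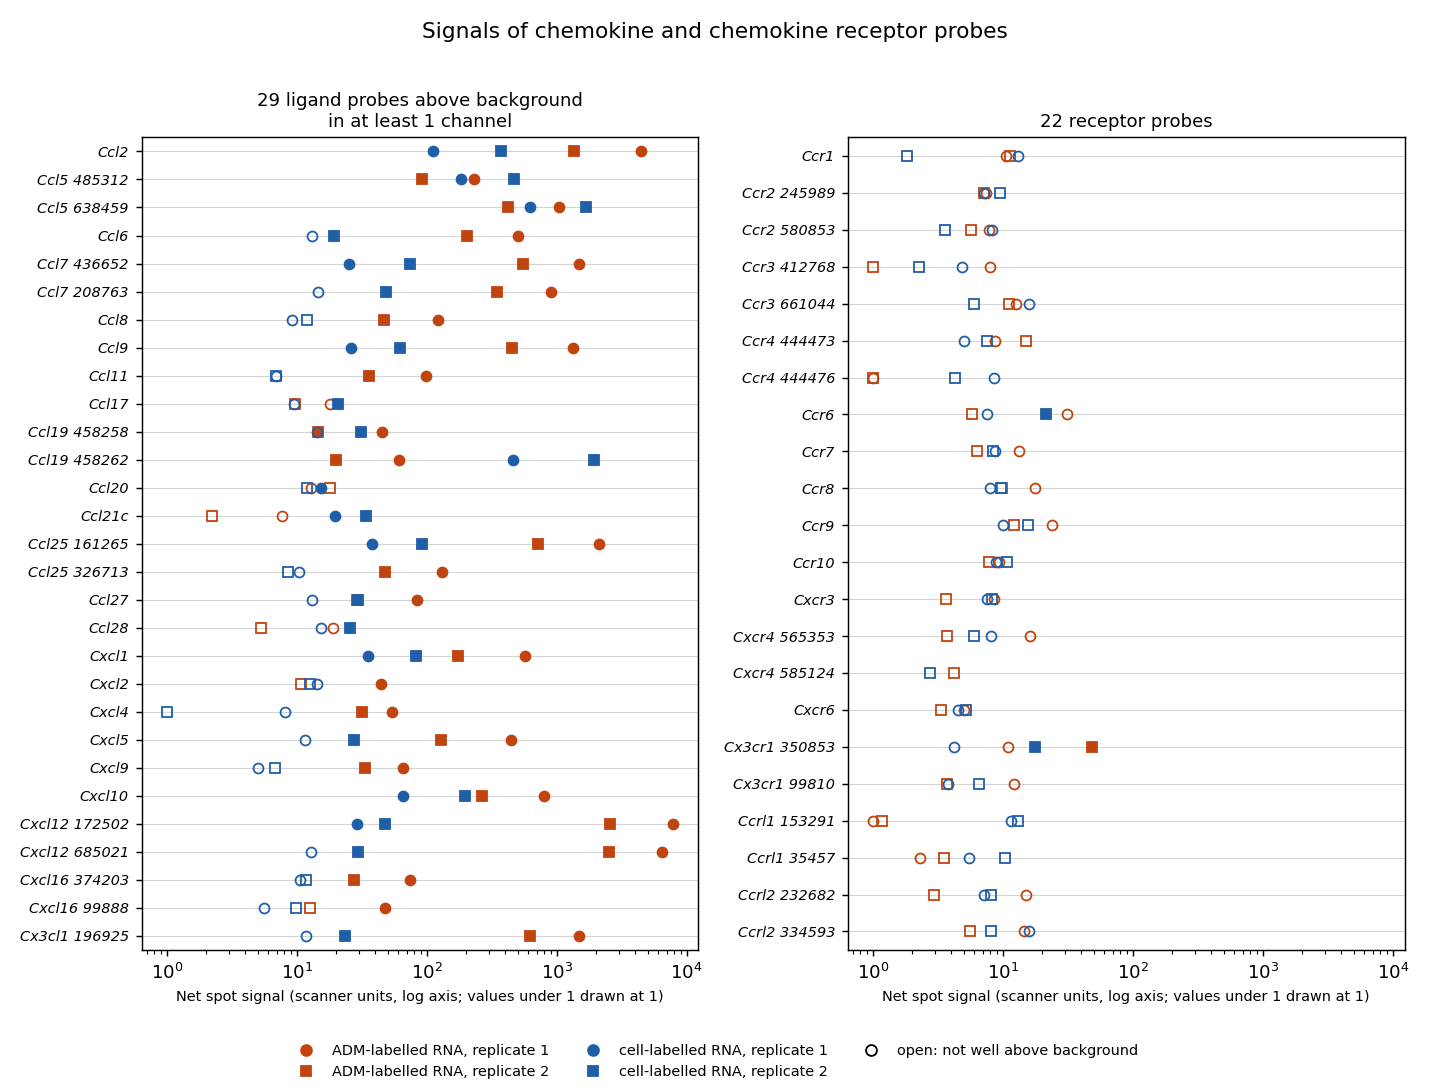
Net spot signal (mean spot intensity minus local background, scanner units, log axis) of the 29 ligand probes above background in at least 1 channel and of 22 receptor probes, with circles for replicate 1, squares for replicate 2 and open symbols where the signal was not well above background. Where a gene has several probes, the number after its name is the end of the probe's ID. Ligand signals reach 7846 units in the ADM RNA, while receptor signals stay at 48.1 units or below.

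The channels differed widely in brightness. Over the tested probes the median ratio of net signals, ADM over cell, was 38.8 in replicate 1 and 7.64 in replicate 2. Loess normalization set each probe's log2 ratio against probes of similar signal, and a member described as lower in the ADM RNA was lower than those probes, although its net signal could be the brighter in that RNA. A probe was tested with limma where it was detected in 1 RNA or the other, and adjusted p-values (Benjamini-Hochberg, threshold 0.05) run over all 18117 tested probes. Of the 68 member probes, 24 of 19 ligand genes passed that filter, beside 44% of all gene probes. A probe seen in 1 RNA enters this set through the RNA where it is bright.

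Of the 24 tested member probes 2 were higher and 6 lower in the ADM RNA, beside 5.52% and 10.9% of all tested probes and 16.4% called in either direction. These 8 probes belong to 6 genes. Cxcl12 was higher at both of its probes. Ccl2, Cxcl1, Cxcl10, Ccl5 at both probes and Ccl19 at 1 of its probes were lower. The other 16 did not pass. The median log2 ratio of the tested members was -0.10, where that of all tested probes was 0.07. Every one of these 8 calls was lost when spots with an outlying local background were kept, a setting that called 0 probes in limma among all 18117 (95 at an unadjusted p under 0.05, against 6484 without those spots). The adjusted p was 0.738 for each of the 8 there. Each kept its sign but shrank to a smaller log2 ratio, to 0.39 and 0.40 for the Cxcl12 probes, -0.18 for Ccl2, -0.09 for Cxcl1, -0.22 for Cxcl10, -0.64 and -1.71 for the Ccl5 probes and -1.95 for Ccl19.

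**Figure D2:**
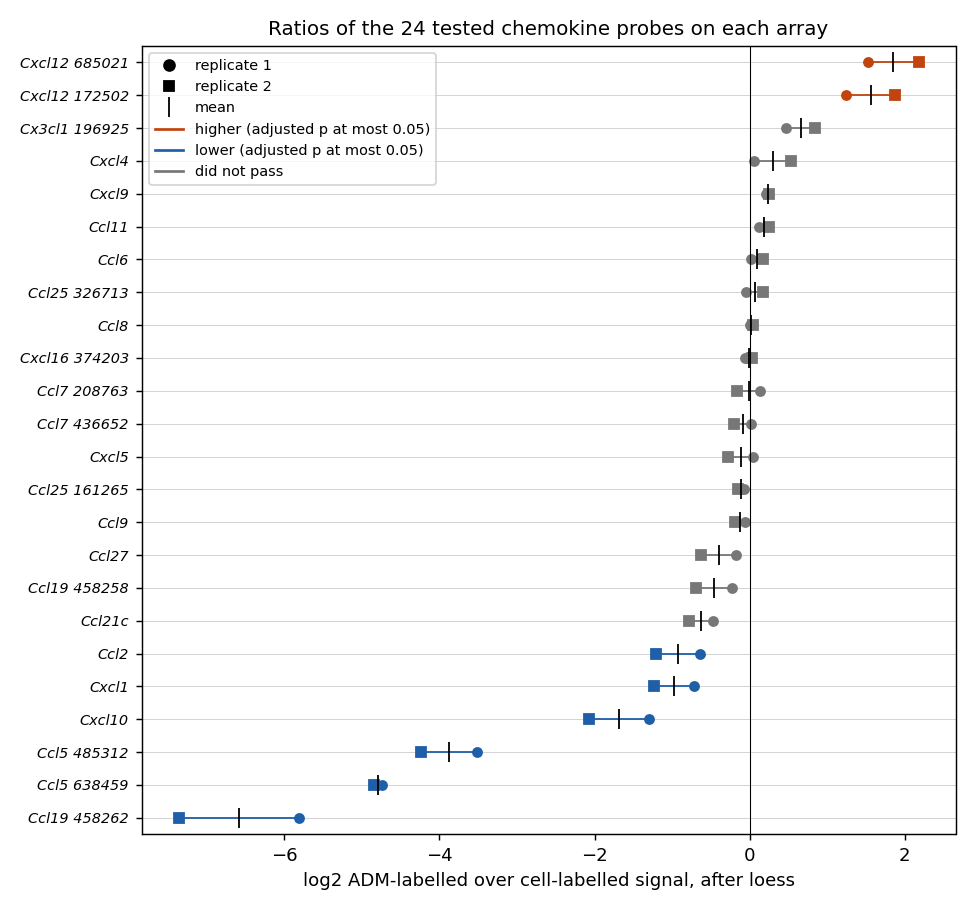
Log2 ratio of ADM over cell signal after loess for each of the 24 tested chemokine probes, with a circle for replicate 1, a square for replicate 2 and a bar for their mean, coloured by whether the limma adjusted p was at most 0.05. Both Cxcl12 probes lie at 1.25 or above on each array, and the Ccl5, Cxcl10, Cxcl1, Ccl2 and lower Ccl19 points lie at -0.64 or below on each.

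Among CXC ligands, Cxcl12 (stromal cell-derived factor, the ligand of Cxcr4 and of the atypical receptor Ackr3) had net signals of 7846 and 2554 units in the ADM RNA of replicates 1 and 2 at probe A_51_P172502 (mm7, chr6:117207552-117207611). In the cell RNA the same probe gave 29.1 and 47.6 units. Coordinates are those of the array annotation, and exon positions were not analysed here. The ADM signals were 269 and 53.6 times the cell ones, above the medians of all tested probes (38.8 and 7.64). After loess the log2 ratios were 1.25 and 1.87, a mean of 1.56 ± 0.44 (SD, n = 2; limma adjusted p = 0.0236), or 2.95-fold.

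The other Cxcl12 probe, A_52_P685021 (chr6:117200799-117200858), is annotated to a different transcript of the gene. Its net signals were 6478 and 2510 units in the ADM RNA and 12.8 and 29.4 in the cell RNA, where replicate 1 was not well above background. The ADM signals were 506 and 85.3 times the cell ones, again above the medians of all tested probes. The log2 ratio was 1.85 ± 0.46 (SD, n = 2; limma adjusted p = 0.0195), or 3.60-fold, and the probes ranked 25 and 59 from the top among the 18117. The call at this probe was lost with a variance trend in limma (adjusted p = 0.101), and that at A_51_P172502 with plain background subtraction (0.0526). Over the tested alternatives adjusted p-values ran from 8.67e-13 to 0.738 and from 3.33e-12 to 0.738 at these probes.

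Cxcl1 and Cxcl10 were lower in the ADM RNA relative to probes of like signal. Cxcl1, which attracts neutrophils, gave net signals of 565 and 175 units in the ADM RNA and 35.2 and 83.3 in the cell RNA (chr5:90882059-90882118). Its log2 ratios were -0.72 and -1.23, a mean of -0.97 ± 0.36 (SD, n = 2; limma adjusted p = 0.0392). Although ADM signals were the brighter on both arrays, by 16.1 and 2.11 times, those factors lay under the medians of all tested probes. With median centring the log2 ratio was 1.46 and did not pass (adjusted p = 0.0602, in a range of 0.00756 to 0.738 over the tested alternatives).

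Cxcl10, an interferon-induced ligand of Cxcr3, gave net signals of 791 and 267 units in the ADM RNA and 65.2 and 195 in the cell RNA (chr5:92334002-92334061). The ADM signals were the brighter by 12.1 times in replicate 1 and 1.37 in replicate 2. Both factors lay under the medians of all tested probes (38.8 and 7.64). After loess the log2 ratios were -1.29 and -2.07, a mean of -1.68 ± 0.55 (SD, n = 2; limma adjusted p = 0.0262). With median centring the log2 ratio was 1.28 and did not pass (adjusted p = 0.102, in a range of 0.00492 to 0.738 over the tested alternatives).

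Shown are the promoters of the called CXC genes, Cxcl1 and Cxcl10 (lower in the ADM RNA) and Cxcl12 (higher). Each is the 250 bases before the RefSeq start (assembly GRCm38.p6), at chr5:90890995-90891244 on the plus strand for Cxcl1, chr5:92348890-92349139 on the minus strand for Cxcl10 and chr6:117168285-117168534 on the plus strand for Cxcl12. Capitals mark matches on either strand to the κB consensus or, in Cxcl10, to the word GAAA repeated after any 2 bases, a pattern of interferon-responsive elements.
Cxcl1: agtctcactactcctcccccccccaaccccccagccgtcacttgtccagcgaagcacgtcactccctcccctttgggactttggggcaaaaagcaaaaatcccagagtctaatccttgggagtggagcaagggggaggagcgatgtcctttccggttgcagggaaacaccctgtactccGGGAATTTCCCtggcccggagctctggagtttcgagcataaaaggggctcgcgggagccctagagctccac
Cxcl10: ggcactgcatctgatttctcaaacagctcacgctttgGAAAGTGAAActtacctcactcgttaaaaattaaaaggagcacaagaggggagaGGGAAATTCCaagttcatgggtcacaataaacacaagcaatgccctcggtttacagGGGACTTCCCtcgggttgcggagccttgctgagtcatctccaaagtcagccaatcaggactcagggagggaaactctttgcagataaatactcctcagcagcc
Cxcl12: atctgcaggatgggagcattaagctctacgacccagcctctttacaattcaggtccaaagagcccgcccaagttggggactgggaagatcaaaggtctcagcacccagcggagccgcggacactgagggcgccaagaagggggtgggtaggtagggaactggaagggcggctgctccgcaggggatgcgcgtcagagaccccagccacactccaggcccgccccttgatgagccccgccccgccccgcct

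In these windows Cxcl1 held 2 overlapping matches to the κB consensus and Cxcl10 held 2 separate ones and 1 match to the spaced GAAA repeat, while the Cxcl12 window held neither motif. The κB consensus was found in 3.9% of 32807 RefSeq windows of this length and in 8 of 44 windows of 38 member genes, those of Ccl9, Ccl20, Cxcl1, Cxcl2, Cxcl10, Ccr3, Ccr6 and Ccrl2. The spaced GAAA repeat stood in 2.97% of all windows and in 3 of the 44 (Ccl19, Cxcl10 and Cxcl14). TATAAA was in 12.37% of all windows and 11 of the 44, with none in the 3 promoters printed. Of the other genes called lower, Ccl19 had 0 matches to the κB consensus in its window. Ccl2 and Ccl5 had no window among the 44. A match describes the letters and not a bound site, and a link between motif and direction was not tested.

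The other CXC ligands did not pass the test. Cxcl5, a neutrophil attractant, gave 446 and 128 units in the ADM RNA and 11.6 and 27.8 in the cell RNA. Its mean log2 ratio came to -0.11 ± 0.23 (SD, n = 2). Its ADM signals stood above the cell ones by 38.4 and 4.60 times, where the medians of all tested probes were 38.8 and 7.64. Cxcl4 (platelet factor), Cxcl9 (an interferon-induced ligand of Cxcr3) and Cxcl16 (a membrane-bound ligand of Cxcr6) were seen in the ADM RNA on both arrays and in the cell RNA on neither.

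Cxcl4 gave 53.8 and 31.8 units in the ADM RNA and 8.16 and 0.650 in the cell RNA. Cxcl9 gave 65.5 and 33.7 against 5.01 and 6.83 units. In such probes the dim RNA's level is not known, and the fold after loess was taken against its own value or, where that was lower, the lowest signal well above background on that array. For Cxcl4 this gave 1.18-fold as a mean of both arrays, where its fitted log2 ratios were 0.05 and 0.54. It did not pass (limma adjusted p = 0.272), and it had entered the test through the ADM RNA, where it was bright. In Cxcl9, Ccl8, Ccl11, Ccl21c and 1 probe of Ccl25 the dim RNA's own value was used, so that the result is the fitted ratio itself and no separate bound. The log2 ratio of Cxcl9 was 0.23 ± 0.03 (SD, n = 2; limma adjusted p = 0.213). Cxcl16 gave 74.3 and 27.8 units against 10.6 and 11.8, and its mean ratio on the log2 scale was -0.01 ± 0.07 (SD, n = 2; limma adjusted p = 0.944). Its second probe and Cxcl2 were above background in the ADM RNA of replicate 1 alone. Cxcl7, Cxcl11, Cxcl13, Cxcl14 and both probes of Cxcl15 were never above background.

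Among CC ligands, Ccl2 (monocyte chemoattractant protein, a ligand of Ccr2) was printed in 10 spots on each array, while each other member probe had 1. The probe (chr11:82118723-82118782) gave mean net signals of 4428 and 1358 units in the ADM RNA of replicates 1 and 2 and 111 and 370 in the cell RNA. The ADM signals were the brighter by 40.0 and 3.67 times, where the medians of all tested probes were 38.8 and 7.64. After loess the log2 ratios were -0.64 and -1.20, a mean of -0.92 ± 0.40 (SD, n = 2; limma adjusted p = 0.0465). Spots on the same array agreed more closely than the arrays did. The 10 spots of replicate 1 ranged from -0.77 to -0.44 (SD 0.11) and the 9 usable spots of replicate 2 from -1.29 to -1.11 (SD 0.06). With robust moderation the adjusted p was 0.0501 and with plain background subtraction 0.0737. With median centring the direction turned to higher in the ADM RNA, at 2.93 (limma adjusted p = 8.41e-05). That p-value is the lower end of the range over the tested alternatives, which reached 0.738.

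**Figure D3:**
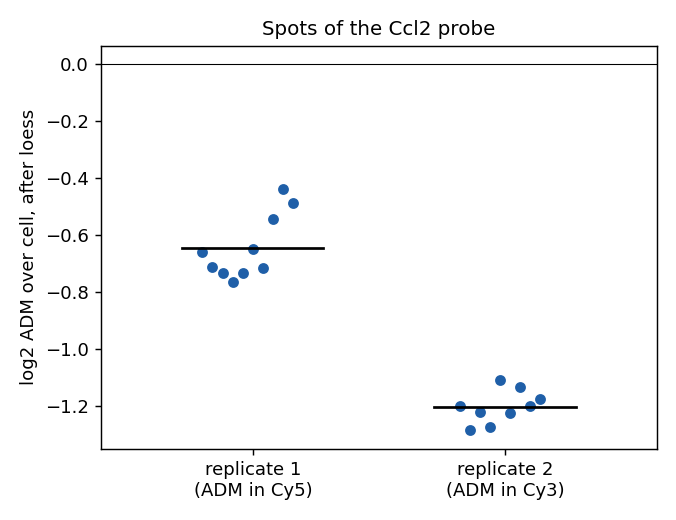
Log2 ratio of ADM over cell signal after loess for each usable spot of the Ccl2 probe, by replicate, with a bar at the mean of each array. The ranges of the arrays do not overlap, and all spots lie below 0.

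Ccl5 (RANTES, which attracts T cells and monocytes) was lower in the ADM RNA at both probes. Probe A_52_P638459 (chr11:83595699-83595758) gave 1043 and 424 units in the ADM RNA and 622 and 1678 in the cell RNA, so that the groups overlapped and the brighter RNA differed between arrays. Against probes of like signal it was far lower in the ADM RNA on both, at -4.74 and -4.85, with a mean of -4.79 ± 0.07 (SD, n = 2; limma adjusted p = 0.000986). Probe A_51_P485312 (chr11:83595850-83595905) gave 233 and 91.9 against 184 and 468 units. Its log2 ratios averaged -3.88 ± 0.52 (SD, n = 2; limma adjusted p = 0.00597). With median centring both probes stayed negative, and neither passed (adjusted p = 0.266 and 0.168). The ranges over tested alternatives were 3.05e-05 to 0.738 and 0.000446 to 0.738.

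Ccl19, a ligand of Ccr7 that guides lymphocytes and dendritic cells into lymph nodes, has near-identical copies in the mouse genome, so its probes may not report that gene alone. Probe A_51_P458262 gave 61.7 and 20.2 units in the ADM RNA and 463 and 1935 in the cell RNA, with the cell RNA the brighter on both arrays. Its log2 ratio was -6.59 ± 1.09 (SD, n = 2; limma adjusted p = 0.00747), rank 60 from the lowest of all tested probes. Probe A_51_P458258, annotated to the same transcript and placed close beside it, gave 45.4 and 14.6 against 14.3 and 31.4 units and a log2 ratio of -0.46 ± 0.33 (SD, n = 2; adjusted p = 0.132). The probes thus disagreed on the size of the difference, and the cause was not tested.

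Ccl21c, another ligand of Ccr7 with several near-identical copies, was seen in the cell RNA (19.7 and 34.1 units) and not above background in the ADM RNA (7.63 and 2.25 units). It did not pass (log2 ratio -0.63 ± 0.22, SD, n = 2; limma adjusted p = 0.0544). Under 4 of 10 tested alternatives it passed.

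Genes next to Ccl2 on chromosome 11 did not pass the test. In RefSeq's gene order Ccl2, Ccl7, Ccl11, Ccl12, Ccl8 and Ccl1 follow each other with no other coding gene between them. Ccl7, a further ligand of Ccr2, gave 1486 and 549 units in the ADM RNA and 25.4 and 74.6 in the cell RNA at probe A_51_P436652, a log2 ratio of -0.09 ± 0.16 (SD, n = 2). Its second probe gave -0.01 ± 0.22 (SD, n = 2). Ccl11 (eotaxin, a ligand of Ccr3) gave 99.3 and 36.0 against 6.88 and 6.97 units and a log2 ratio of 0.18 ± 0.09 (SD, n = 2; adjusted p = 0.316). Ccl8 gave 121 and 47.3 against 9.23 and 11.9 units and a log2 ratio of 0.02 ± 0.02 (SD, n = 2; adjusted p = 0.891). Ccl12 and Ccl1 were never above background. The difference between Ccl2 and its neighbours was not tested.

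The neighbours of Ccl5 also did not pass. RefSeq places Ccl5, Ccl9, Ccl6, Ccl3 and Ccl4 in a row. Ccl9, a ligand of Ccr1, gave 1325 and 453 units in the ADM RNA and 25.9 and 61.8 in the cell RNA, a log2 ratio of -0.12 ± 0.09 (SD, n = 2). Ccl6, also a ligand of Ccr1, gave 501 and 203 against 13.0 and 19.4 units, a log2 ratio of 0.10 ± 0.11 (SD, n = 2). Ccl3 and Ccl4 were never above background.

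Ccl25, the thymus-expressed ligand of Ccr9, has 3 probes. A_51_P161265 gave 2121 and 718 units in the ADM RNA and 38.2 and 91.2 in the cell RNA, a log2 ratio of -0.11 ± 0.05 (SD, n = 2). A_52_P326713 gave 130 and 47.5 against 10.45 and 8.60 units. Its log2 ratios were -0.05 and 0.18, of opposite sign (mean 0.07 ± 0.16, SD, n = 2; limma adjusted p = 0.718). The third was never above background. Ccl27, a skin-homing ligand of Ccr10, gave 84.5 and 29.2 against 13.2 and 29.5 units and a log2 ratio of -0.40 ± 0.31 (SD, n = 2), and did not pass. Ccl17 and Ccl28 were above background in the cell RNA of replicate 2 alone and Ccl20 in that of replicate 1 alone. Both probes of Ccl24 were never above background, and neither was Ccl22, which had no value in replicate 2.

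Cx3cl1 (fractalkine), a membrane-anchored ligand, gave 1489 and 620 units in the ADM RNA and 11.9 and 23.3 in the cell RNA at probe A_51_P196925 (chr8:93371329-93371388). The cell RNA of replicate 1 was not well above background. The ADM signals were 126 and 26.6 times the cell ones, above the medians of all tested probes (38.8 and 7.64). The log2 ratio at this probe was 0.66 ± 0.27 (SD, n = 2), and it missed the threshold (limma adjusted p = 0.0572). It passed under 5 of 10 tested alternatives, with a range of 5.06e-08 (with a variance trend in limma) to 0.738. One of these was a background offset of 10, where the log2 ratio was 1.03 (limma adjusted p = 0.0259). The second Cx3cl1 probe and Xcl1 were never above background.

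Receptors were near background throughout. None of the 23 probes of 16 genes was above background in either RNA on both arrays, against 45.4% and 23.1% of all probes, so no receptor was tested. The highest receptor signals in the ADM RNA were 30.8 units in replicate 1 (Ccr6) and 48.1 in replicate 2 (Cx3cr1), and in the cell RNA 15.9 (Ccr3) and 21.5 (Ccr6). Above background on a single array were Ccr6 in the cell RNA of replicate 2 and 1 probe of Cx3cr1 in both RNAs of replicate 2. The second probe of Cx3cr1 was not, at 3.70 units in the ADM RNA of that array. Among the others Ccr1 to Ccr4, Ccr7 to Ccr10, Cxcr3, Cxcr4, Cxcr6, Ccrl1 and Ccrl2 were never above background, with no value at 1 Cxcr4 probe in replicate 1. At this signal a difference in receptor RNA was not detectable.

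Under the scanner's weaker flag, positive and significant against background, 4 receptor probes were seen in the ADM RNA on both arrays and 4 in the cell RNA. With that flag 32 and 27 of the 68 member probes were seen, and 28 and 23 of these were ligands.

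**Figure D4:**
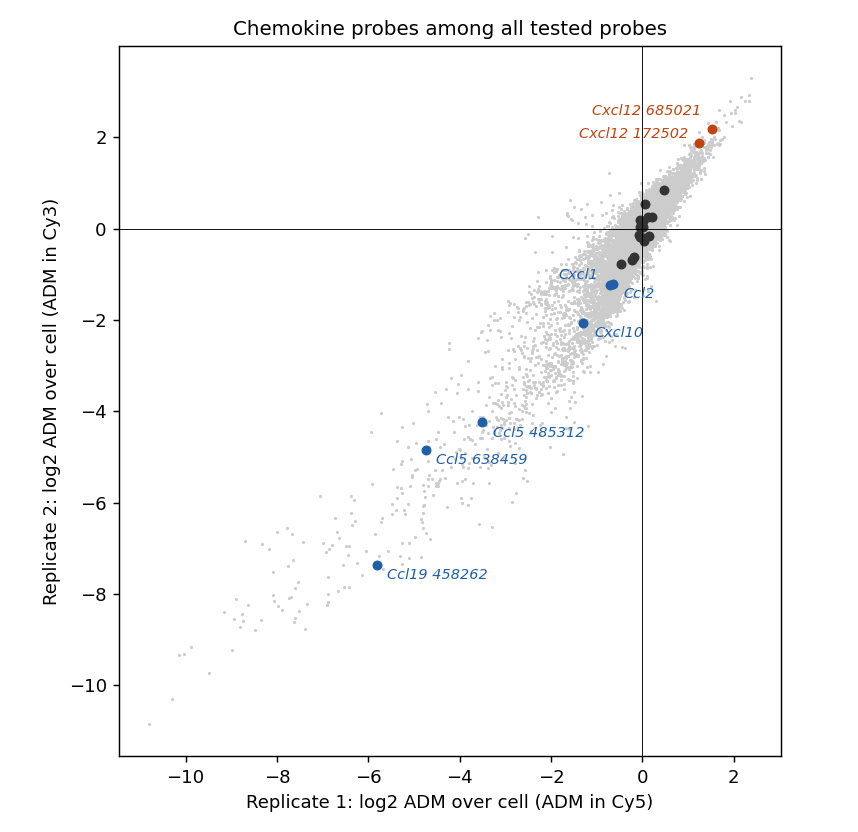
Log2 ratio of ADM over cell signal after loess in replicate 1 (x axis) against replicate 2 (y axis), with all 18117 tested probes in grey and the 24 tested chemokine probes as large points, orange where higher, blue where lower and black where they did not pass. The chemokine points follow the band of all probes, with Ccl19, Ccl5 and Cxcl10 towards the lower left and Cxcl12 at the upper right.

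Across all tested probes the ratios of the arrays had the same sign at 81.0% of probes, with Pearson's r = 0.926 and Spearman's rho = 0.812 across probes, which are not independent replicates.

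With median centring Ccl2, Cxcl1 and Cxcl10 turned from negative to positive log2 ratios, in a setting that also shifted all probes. The median of all tested probes was 0.07 with loess, 2.04 with median centring and 0.69 with the scanner's processed signals. Relative to these medians both Cxcl12 probes were higher in each scaling, at 3.27 and 3.42 with median centring and 1.80 and 2.85 with the scanner's signals. Ccl5, Ccl19, Cxcl10 and Cxcl1 were lower in each, with median-centred values of -2.94 and -3.14 for Ccl5, -5.80 for Ccl19 at A_51_P458262, -0.76 for Cxcl10 and -0.58 for Cxcl1. Ccl2 turned from -1.86 with the scanner's signals to 0.89 with median centring. Cx3cl1 was higher in each, at 1.48 and 1.90. A place below the median with median centring was not particular to called probes. The dim Cxcl9 and Ccl11, with positive loess ratios, lay at -1.57 and -1.40 there. The brighter Ccl9, with a negative loess ratio, lay at 0.77.

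**Figure D5:**
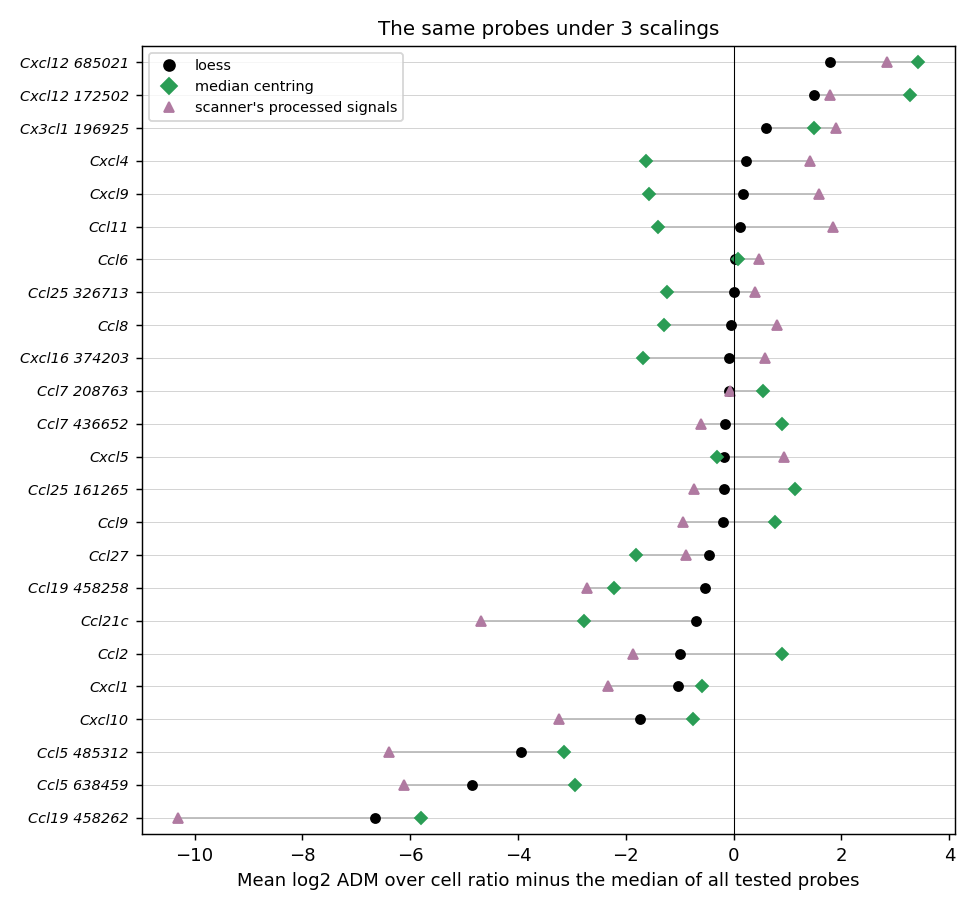
Mean log2 ratio of ADM over cell signal of each tested chemokine probe minus the median of all tested probes, under loess, median centring and the scanner's processed signals. Cxcl12 and Cx3cl1 stay to the right of 0 and Ccl5, Ccl19, Cxcl10 and Cxcl1 to the left in all 3, while Ccl2 crosses 0 with median centring.

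Genes around the chemokine pathway were read from 3 lists, beside the 16.4% of all tested probes that passed (5.52% higher, 10.9% lower). Of 16 genes for other chemokine ligands, atypical receptors and chemoattractants, 8 probes were tested, 0 were higher and 2 lower, with a median log2 ratio of -0.13 (all probes 0.07). The 2 were Cmklr1, the receptor of chemerin, at -3.0 ± 1.43 (SD, n = 2; limma adjusted p = 0.0393), and Mif, a cytokine that can act through chemokine receptors, at -0.82 ± 0.17 (adjusted p = 0.0312). Relative to the median of all probes Mif turned to 1.72 with median centring, while Cmklr1 stayed lower at -3.78. Ackr3, the scavenging receptor of Cxcl12 (named Cmkor1 on the array), was seen in the ADM RNA and on neither array in the cell RNA, at 187 and 64.9 against 1.5 and 7.68 units, and did not pass (log2 ratio 0.33 ± 0.13, SD, n = 2).

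Of 39 genes for receptor signalling and migration, 56 probes were tested, 3 higher and 1 lower, with a median of 0.11, so that a smaller share passed than of all probes. Rgs2, a brake on G protein signalling, was higher at 1 probe, at 1.24 ± 0.03 (SD, n = 2; limma adjusted p = 0.0144), and its second probe did not pass (0.18 ± 0.21). Arrb1, an arrestin that ends receptor signalling, was lower at 1 probe, at -1.80 ± 0.08 (limma adjusted p = 0.00747). That probe turned to 0.29 above the median of all probes with median centring. The second Arrb1 probe gave -0.15 ± 0.12 and did not pass (limma adjusted p = 0.396). Gnai2, the inhibitory G protein subunit that chemokine receptors use, was at 0.55 ± 0.24 and Arrb2 at 0.16 ± 0.06, and neither passed.

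Of 39 genes for NF-κB, Toll and TNF signalling and its targets, 42 probes were tested, 2 higher and 5 lower, a share close to that of all probes, with a median of 0.06. Tnfrsf1a, a TNF receptor, was higher at 1.11 ± 0.03 (SD, n = 2; limma adjusted p = 0.0169) and Vcam1, a leukocyte adhesion molecule, at 0.75 ± 0.04 at 1 of its 2 tested probes (adjusted p = 0.0296). The other Vcam1 probe gave 0.25 ± 0.35 and did not pass. Lower were Nfkbia, the inhibitor that NF-κB itself induces, at -2.87 ± 0.90 (adjusted p = 0.0227), the acute phase gene Saa3 at -2.25 ± 0.56 (0.0181), Tnfrsf1b, another TNF receptor, at -1.50 ± 0.73 at 1 of its 2 tested probes (0.0448), Traf2 at -1.30 ± 0.17 (0.0161) and Cebpd at -0.82 ± 0.20 (0.0331). The other Tnfrsf1b probe gave 0.17 ± 0.08 and did not pass. Relative to the median with median centring Nfkbia, Saa3 and the lower Tnfrsf1b probe stayed lower (-0.31, -1.24 and -2.00), whereas Traf2 and Cebpd turned (0.32 and 1.08). Rela, an NF-κB subunit, was at -0.03 ± 0.06, Il6 at -0.40 ± 0.29 and Csf1 at 0.46 ± 0.09, and none of these passed. Icam1 and Tnf were not above background in either RNA on both arrays.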

How the data were processed

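RNA of ADMs and of donor 3T3-L1 adipocytes (250 ng of each, per the labels) was read on 2 dye-swapped Agilent arrays of the same slide and scan. Spot and background intensities and spot flags were deposited as Feature Extraction 10.5.1.1 gave them, per the file headers, with probe coordinates of build mm7. The series table deposited by the authors gives log10 ratios, equal to those of the scanner for array 1 and of opposite sign for array 2, and was not tested further. The scanner's processed signals had been background-subtracted and dye-normalized before deposit, per the file headers.

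Background was corrected with normexp (offset 50) and ratios by loess within arrays, with control spots and outlier-flagged spots at weight 0. Every ratio was turned to ADM over cell. Spots whose local background carried an outlier flag (2303 and 1710) were left out before correction, and with other outlier flags 2566 and 1942 spots were left out, so that 3198 of 41174 probes lacked a value on an array. This choice was taken over from an earlier analysis of these data, where it was made after the setting that kept those spots had called 0. No gene spot was saturated. Values of replicate spots were averaged, and 50% or more of them had to be flagged well above background for detection. Fits used limma 3.58.1 (lmFit, eBayes) in R 4.3.3 over the 18117 probes detected in 1 RNA on both arrays, with 1 residual and 2.91 prior degrees of freedom. The fit was also run on simulated ratios whose spread was drawn from its own estimate. Such a run checks the code and cannot judge effects of dye, normalization or background. RefSeq accessions (assembly GRCm38.p6) named 60 of the 68 member probes, and the others kept the file's name.

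Members and lists were chosen with earlier results of these data known. Given in full were members above background in both RNAs, or throughout in 1 RNA and never in the other; of the lists, the called probes at the extremes and preset genes, some of which are not reported here. Alternatives covered normalization, background, filter, probe choice, moderation and each array alone. The number of arrays limits the precision. The limma p-values draw on a probe's spread between these 2 pairs, which the labels call biological. They weigh it with the spread of all tested probes, at 1 residual and 2.91 prior degrees of freedom.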

Additional observations from a re-analysis of the deposited data

How the results depend on the processing

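Of the 18117 tested probes 2969 passed in limma, 33.7% of them higher in the ADM RNA. With median centring 11043 passed (97.6% higher), with the scanner's processed signals 8372 (69.3%), with an offset of 10 4923, with plain background subtraction 1972 (23.6%), with scaling between arrays 4800, with a variance trend 7754 (58.4%), and with outlying local backgrounds kept 0 (95 at an unadjusted p under 0.05). Member probes called higher, 2 in the report, numbered 10 with median centring, 7 with the scanner's signals, 1 with the filter on both RNAs, 1 with the brightest probe per gene and 0 with outlying backgrounds kept. Member probes called lower, 6 in the report, numbered 1 with median centring and 0 with outlying backgrounds kept. With median centring Ccl2 (2.93), Cxcl1 (1.46) and Cxcl10 (1.28) turned positive, where the median of all tested probes was 2.04. Ccl2 passed there as higher in the ADM RNA (limma adjusted p = 8.41e-05), and Cxcl1 and Cxcl10 did not pass. Median centring and the trend gave infinite prior degrees of freedom, so their p-values do not reflect a probe's own spread. Detection of 11 member probes in the cell RNA ranged from 12 to 22 on a single array and was 27 with the weaker flag. Without 1 array the 24 ratios are values with no test. The causes of these shifts were not tested. The ratio within each array already pairs the RNAs of a replicate, so no further replicate block was fitted. Signal over background limits the receptors, at which a difference was not detectable, and the dim ligands. Of these ligands none passed in the main fit. Ccl21c passed under 4 of 10 tested alternatives, and Cxcl4 and Cxcl9 under 2 of 10 each.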
